A study of Mus musculus with 18 samples.

Results

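Red blood cells pass through the vessels of the embryonic lung, and their transcripts are sampled with those of the lung itself. The genes described here are 9 genes of hemoglobin and heme synthesis: the globin genes *Beta-s*, *Hbb-y*, *Hbb-bh1*, *Hba-x* and *Hba-a1*, the heme synthesis genes *Alad* and *Alas2*, the anion exchanger *Slc4a1* and the transcription factor *Klf1*. They were chosen by name from the 23420 gene rows of each table. *Beta-s* and *Alad* were also chosen for lower values in *Vangl1/2* and in *Wnt5a*-*Sox9Cre* mutant lungs, so in those experiments the values of all 9 genes are given as a description, with no test. In the remaining experiment the genes were tested. Of the 9 genes, 8 had values above 0 and passed the filter on low values in every experiment, and *Hba-a1* was listed at 0 in all 18 libraries.

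Bulk RNA-Seq was performed on embryonic mouse lungs in 3 experiments, each with 3 mutant and 3 control libraries. In the *Vangl* experiment, at E12.5 (embryonic day, in days post coitum), both groups carried the *Vangl1-/-* genotype, and mutants in addition *Vangl2-/-*, so controls were not wild type. In the *Dermo1* experiment, also at E12.5, both groups carried *Dermo1Cre*, which acts in the lung mesenchyme, with *Wnt5af/+* in controls and *Wnt5af/f* in mutants. In the *Sox9* experiment, at E13.5, both groups carried *Sox9Cre*, which was used to delete in the epithelium and whose onset is late, with the same pair of *Wnt5a* genotypes. The number of embryos in a library and the strain background of each library were not given in the sources used here, so p-values measure only the spread between these libraries.

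Erythropoiesis in the mouse embryo proceeds in overlapping waves. Primitive erythroid cells arise in the yolk sac and circulate as nucleated cells that express embryonic globins, and definitive erythroid cells then arise in the fetal liver and express adult globins. Each hemoglobin tetramer pairs alpha-like with beta-like chains, and each chain holds a heme made in a pathway that begins with aminolevulinate synthase and ends with ferrochelatase. In bulk lung RNA, fewer erythroid cells and less RNA in each such cell cannot be told apart.

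The beta-like genes lie in a cluster on chromosome 7, in GRCm38 coordinates. *Hbb-y*, the embryonic epsilon-y globin, lies at chr7:103851749-103853216 on the minus strand. *Hbb-bh1*, the embryonic beta-h1 globin, lies at chr7:103841637-103843164. *Beta-s* is a synonym of *Hbb-bs*, an adult beta globin of the haplotype found in C57BL/6 mice, at chr7:103826534-103828096. Other strains carry the adult genes *Hbb-b1* and *Hbb-b2* in its place. *Hba-x*, the embryonic zeta globin, and *Hba-a1*, an adult alpha globin, lie at chr11:32276400-32278116 and chr11:32283511-32284465 on the plus strand. Outside the clusters, *Alad* lies at chr4:62509169-62519918 and encodes aminolevulinate dehydratase, the enzyme of the step after aminolevulinate synthase. *Alas2*, the erythroid aminolevulinate synthase, lies at chrX:150547375-150570638. *Slc4a1*, the anion exchanger of the red cell membrane, lies at chr11:102348824-102366203, and *Klf1*, an erythroid factor that binds CACCC boxes, lies at chr8:84901928-84905291.

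Promoter sequences from RefSeq, build GRCm38.p6, were matched for 7 of the 9 genes, with 2 start sites for *Alad*. They are shown because *Beta-s* and *Alas2*, and also *Hbb-y* and *Hba-x*, varied together between libraries. The pairs were not separate groups, since *Alas2* varied with *Hbb-y* and *Hba-x* too. *Alad* varied with *Hbb-y* and *Hba-x* but little with *Beta-s*. The 120 bases before the start site are printed 5′ to 3′ on the strand of the gene, with matches on either strand to 3 motifs in capitals. The motif searched for GATA factors was AGATAA, the motif that covers some CACCC and some GC boxes was CCNCNCCC, and the last was the CCAAT box. Matches may overlap each other.
Beta-s (chr7:103827929-103828048): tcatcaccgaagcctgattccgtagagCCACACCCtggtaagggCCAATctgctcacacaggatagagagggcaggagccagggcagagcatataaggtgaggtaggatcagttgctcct
Alas2 (chrX:150547297-150547416): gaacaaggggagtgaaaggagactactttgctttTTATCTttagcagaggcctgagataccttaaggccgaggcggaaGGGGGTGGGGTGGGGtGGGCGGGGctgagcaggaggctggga
Hbb-y (chr7:103853208-103853327): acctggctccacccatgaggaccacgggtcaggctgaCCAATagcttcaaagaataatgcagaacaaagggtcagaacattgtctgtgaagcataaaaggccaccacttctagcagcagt
Hba-x (chr11:32276480-32276599): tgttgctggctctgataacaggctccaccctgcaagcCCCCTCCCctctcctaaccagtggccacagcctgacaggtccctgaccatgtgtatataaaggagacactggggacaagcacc
Alad, start site 1 (chr4:62519910-62520029): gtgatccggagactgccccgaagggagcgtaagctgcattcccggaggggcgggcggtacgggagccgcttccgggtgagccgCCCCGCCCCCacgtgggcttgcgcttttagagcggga
Among all 32851 RefSeq promoters of 300 bases (250 before and 50 after the start), 11.2% held AGATAA, 49.5% CCNCNCCC and 37.4% CCAAT. Of the 8 promoters of these genes, 2 held AGATAA, 5 CCNCNCCC and 6 CCAAT. Other forms of these boxes were not searched, such as TGATAA in the printed bases of *Hba-x* and CCACCC in those of *Hbb-y*. *Beta-s* held 1 match to each motif, its AGATAA lying at -210 to -205 from the start, outside the printed bases. In the printed bases it had a CACCC box at -93 to -86 and CCAAT at -76 to -72. *Alas2* held AGATAA on the opposite strand at -86 to -81 and 4 matches to CCNCNCCC, some of them overlapping. Of the 3 motifs as searched, *Hbb-y* held CCAAT alone and *Hba-x* CCNCNCCC alone. The *Alad* promoter at start site 1 had no AGATAA, and its matches to CCNCNCCC in the printed bases lay in a GC-rich run at -37 to -28. Such matches are a description of the letters and not of a bound factor.

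Between 15945393 and 19814346 reads per library lay on genes. The values are read counts that had been divided by a size factor between 0.952 and 1.07, called normalised read counts here, so 10 of them rest on about 10 reads. *Vangl2* in *Vangl* mutants was at 25.2% of its controls with no overlap, whereas *Wnt5a* was at 70.6% in *Dermo1* and 92.6% in *Sox9* mutants, with groups that overlapped in both. The *Vangl* libraries stand apart in other ways. The difference between mutants and controls rose with transcript length across 14184 genes (Spearman's rho 0.716, against 0.248 in *Dermo1* and -0.034 in *Sox9*), and on the principal component that held 51.7% of the variance control replicate 2 (16.97) lay with the mutants (15.06 to 21.47) and away from the other controls (-30.09 and -44.66). The *Vangl* log2 differences of the 8 genes were therefore also computed with that length trend removed, an alternative chosen after the data were seen, and without that library.

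*Hbb-y* had the highest normalised read count per kb of transcript among the 8 genes in every group of libraries. The level of *Beta-s* is uncertain, since 62.6% of its windows of 100 bases also occur in *Hbb-bt*, which was not listed. Whether reads that fit both were left out was not tested, so the place of *Beta-s* relative to *Hbb-y* and *Hba-x* is uncertain too. In normalised read counts per kb *Hbb-y* averaged 55198 ± 14406 (SD, n = 3) in *Vangl* controls, 37386 ± 4826 in *Dermo1* controls and 32446 ± 1169 in *Sox9* controls. The next places went to *Hba-x* and *Beta-s*. In *Vangl* controls they were at 14774 ± 4191 and 12521 ± 1495 per kb, which did not differ beyond their spread. In *Dermo1* controls *Beta-s* (17538 ± 272) lay above *Hba-x* (7737 ± 1096), and in *Sox9* controls likewise (12057 ± 2498 against 5998 ± 500). *Hbb-bh1*, *Alad* and *Alas2* followed, between 259 and 1232 per kb in the controls, and their order was not the same in the 3 experiments. *Slc4a1* was at 83.1 to 114 per kb and *Klf1* at 10.4 to 11.7 per kb. Tables were normalised separately, so levels set side by side across experiments also carry that difference.

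**Figure D1:**
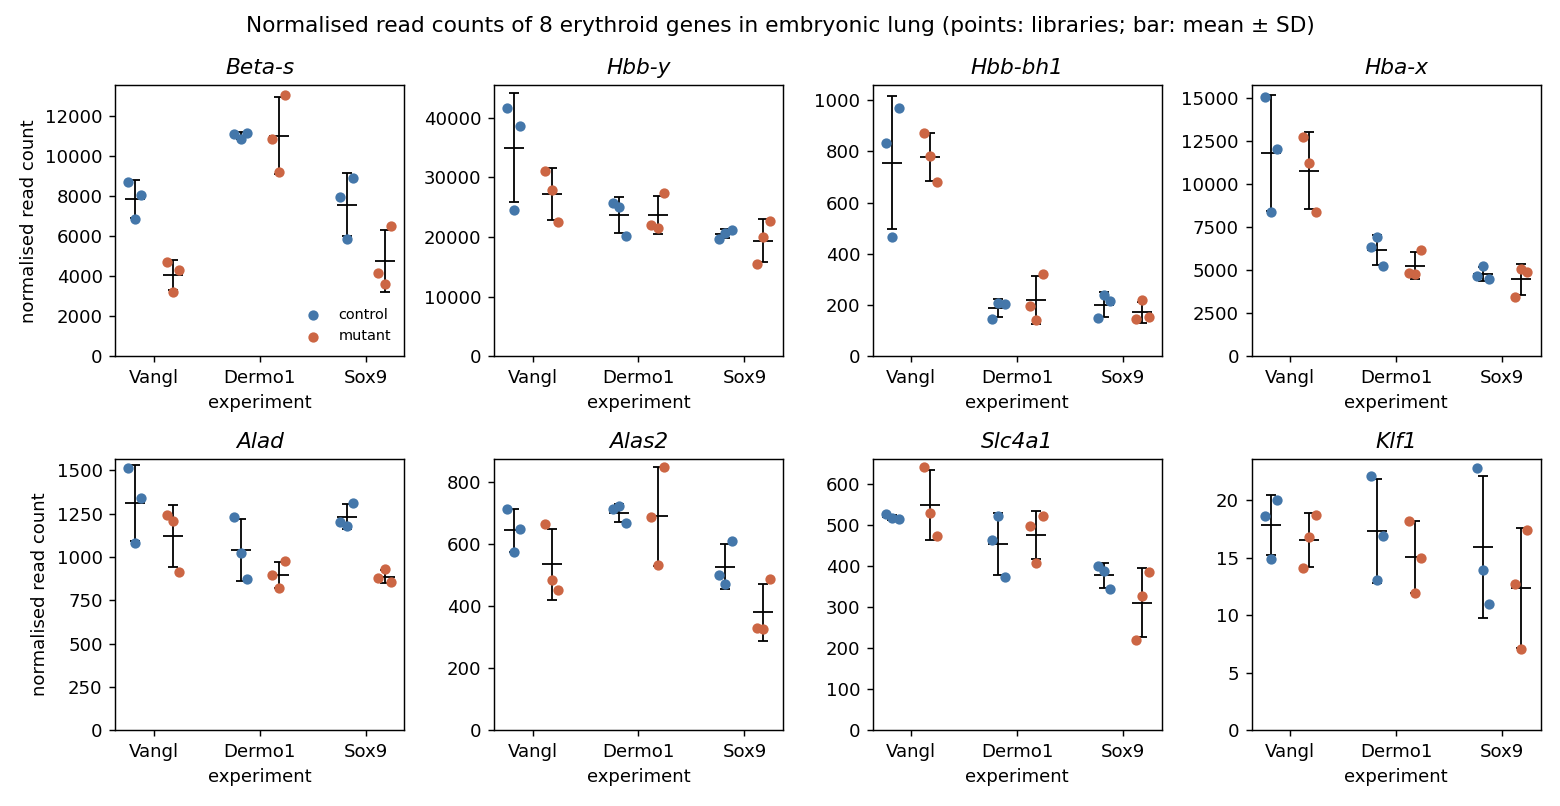
Normalised read counts (y axis, from 0) of 8 genes in 18 libraries, by experiment (x axis), with controls in blue and mutants in orange. Points are libraries and bars the mean ± SD of 3. *Beta-s* in *Vangl* and *Alad* in *Sox9* are the panels in which mutant points lie wholly below their controls, and *Hbb-bh1* is highest in the *Vangl* experiment.

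The adult beta globin *Beta-s* was at 8705, 6850 and 8033 normalised read counts in *Vangl* controls and at 4694, 3215 and 4295 in the mutants. All 3 mutant libraries lay below all 3 controls. The mean was 51.7% of the control, a log2 difference of -0.96 (SE 0.16). *Beta-s* was 1 gene of the 8 whose *Vangl* groups did not overlap with mutants lower, and 8.68% of all 14303 genes tested behaved so. With the length trend removed the log2 difference was -0.58, and without control replicate 2 it was -1.06. Leaving out a library cannot make groups that are apart overlap, and overlap was not computed again with the trend removed.

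In *Sox9* lungs, *Beta-s* was at 7975, 5841 and 8900 in controls and at 4140, 3609 and 6501 in mutants. Mutant replicate 3 lay above control replicate 2, so the groups overlapped. The mean was 62.7% of the control (log2 difference -0.70, SE 0.22). Without either of these libraries the groups no longer overlapped, with a log2 difference of -0.95 without mutant replicate 3 and -0.87 without control replicate 2.

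In *Dermo1* lungs, *Beta-s* was at 11076, 10821 and 11145 in controls and at 10827, 9180 and 13049 in mutants. The controls were close to each other and the mutants lay on either side of them. The log2 difference was -0.01 (SE 0.10, adjusted p = 0.972, limma with Benjamini-Hochberg adjustment over 14277 genes). In this comparison 0.014% of all genes tested were called at an adjusted p below 0.05, and 0 of the 8 genes were called. At an unadjusted p below 0.05 the count was also 0 of 8, against 10.2% of all genes, and groups without overlap were seen in 0 of 8, against 15.6%. The smallest adjusted p among them was 0.522.

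The reads of *Beta-s* are uncertain with respect to a near-identical neighbour. Of the windows of 100 bases in the *Hbb-bs* transcript, 62.6% occur unchanged in *Hbb-bt*, which has no row of its own in the tables used here. *Hbb-b2* was listed at 0 in every library and *Hbb-b1* at 0 but for a single read in 1 library. Differences in strain between groups were not tested.

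The embryonic globins did not separate mutants from controls in any experiment. *Hbb-y* was at 41665, 24561 and 38595 in *Vangl* controls and at 31063, 27903 and 22475 in mutants (77.7% of control). The lowest control, replicate 2, lay among the mutants, and without it the groups did not overlap (log2 difference -0.58, against -0.34 with it). With the length trend removed the log2 difference was 0.05. In *Dermo1* lungs *Hbb-y* was at 25780, 25052 and 20163 in controls and at 22075, 21555 and 27400 in mutants. Its log2 difference was 0.00 (SE 0.11, limma adjusted p = 0.999). In *Sox9* lungs it was at 19735, 20685 and 21193 in controls and at 15567, 20005 and 22633 in mutants (94.5% of control). The *Sox9* controls were closer together than the mutants, which fell on both sides of them.

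*Hba-x* was at 15089, 8383 and 12029 in *Vangl* controls and at 12758, 11250 and 8367 in mutants, which overlapped (91.2% of control). Its log2 difference was -0.11, and it was 0.25 with the length trend removed and -0.34 without control replicate 2. In *Dermo1* lungs it was at 6383, 6967 and 5242 in controls and at 4859, 4785 and 6179 in mutants. Its mean there was 85.1% of the control, with a log2 difference of -0.23 (SE 0.12, limma adjusted p = 0.522), which did not pass the test. In *Sox9* lungs it was at 4673, 5254 and 4485 against 3461, 5098 and 4935 (93.6% of control). *Hbb-y* and *Hba-x*, a beta-like and an alpha-like chain of primitive erythroid cells, varied together between libraries of a group. After the mean of each group was subtracted, Pearson's r of their log2 values over 18 libraries was 0.939 and Spearman's rho 0.903. Points in this measure share the size factor of their library.

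*Hbb-bh1* was at 831, 467 and 968 in *Vangl* controls and at 869.5, 782 and 681 in mutants (103% of control). Its log2 difference was 0.10, and it was 0.49 with the length trend removed and -0.21 without control replicate 2. In the other experiments it was at 141.9 to 323.5, lower than in every *Vangl* library. It was at 147, 209.8 and 205 in *Dermo1* controls and at 197, 142 and 323.5 in mutants (log2 difference 0.17, SE 0.26, limma adjusted p = 0.849). In *Sox9* it was at 149.7, 241 and 216.5 in controls and at 144, 218 and 153 in mutants (84.9% of control). In none of the experiments were its groups apart.

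The adult alpha globins could not be measured. *Hba-a1* and *Hba-a2* were listed at 0 in all 18 libraries, and an embryonic share of alpha-like globin could not be computed. Of the windows of 100 bases in the *Hba-a1* transcript, 56.5% occur unchanged in *Hba-a2*, while none occur in *Hba-x*. Whether reads that fit both adult copies were left out was not tested.

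Ratios between globins within a library do not depend on its size factor. The share of beta-like globin that was embryonic (*Hbb-y* plus *Hbb-bh1* over these and *Beta-s*, each per kb) was 82.9%, 78.4% and 83.0% in *Vangl* controls and 87.1%, 89.9% and 84.3% in mutants. All mutants lay above all controls. In *Sox9* lungs the share was 71.2%, 78.1% and 70.5% in controls and 79.0%, 84.8% and 77.7% in mutants, and mutant replicate 3 lay just below control replicate 2. The transcripts compared are close in length (*Hbb-y* 633 bases, *Hbb-bh1* 613 and *Beta-s* 628). *Beta-s* alone stands for the adult genes here. Its near-identical neighbour *Hbb-bt* was not listed, and whether reads that fit both were left out was not tested. The height of the embryonic share is therefore uncertain. *Beta-s* enters both shares and had been chosen for its fall, so they are a description. In *Dermo1* lungs the share was 69.9%, 69.8% and 64.5% in controls and 67.1%, 70.1% and 67.8% in mutants. The difference was 0.282 percentage points (mutants 68.3% ± 1.56, controls 68.1% ± 3.13, SD, n = 3 each; exact two-sided permutation test, p = 0.8, smallest possible p 0.1). Wilson 95% intervals of the share of reads in single libraries were 0.656 to 1.12 percentage points wide and cover counting error only.

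The rule for these genes also set stage against stage in the controls. The embryonic share was 73.2% ± 4.17 at E13.5 (SD, n = 3) and 74.8% ± 7.76 at E12.5 (n = 6), a difference of -1.5 percentage points (exact two-sided permutation test, p = 0.881, smallest possible p 0.024). The controls of E12.5 fell into separate ranges by experiment, 78.4% to 83.0% in *Vangl* and 64.5% to 69.9% in *Dermo1*. They are not interchangeable, as the permutation test assumes. *Beta-s* had also been chosen with the values of the *Vangl* controls, so no conclusion is drawn from the test. Against the *Dermo1* controls alone the E13.5 controls were 5.18 points higher, and against the *Vangl* controls alone the difference was -8.19 points (exact permutation p = 0.1 in both, the smallest that 3 against 3 allows). Stage, genotype and experiment cannot be told apart in this comparison, and the limit on the reads of *Beta-s* given above holds here too.

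The *Vangl* libraries also differed from the other experiments in which embryonic globins they held. Of the embryonic beta-like globin per kb, *Hbb-bh1* made up 2.16% ± 0.322 in *Vangl* controls (SD, n = 3), 0.828% ± 0.228 in *Dermo1* controls and 1.0% ± 0.209 in *Sox9* controls. The *Vangl* controls (1.93% to 2.52%) did not overlap with the others, though the stage was that of the *Dermo1* lungs. In *Vangl* mutants the share was 2.81% to 3.04%, above every control. The ratio of *Hba-x* to *Hbb-y* per kb was 0.267 ± 0.0200 in *Vangl* controls, 0.207 ± 0.0121 in *Dermo1* controls and 0.185 ± 0.0168 in *Sox9* controls. It was 0.325, 0.319 and 0.294 in *Vangl* mutants, above their controls at 0.286, 0.270 and 0.246. It was 0.174, 0.175 and 0.178 in *Dermo1* mutants, below their controls at 0.196, 0.220 and 0.205. *Sox9* mutants and controls overlapped.

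**Figure D2:**
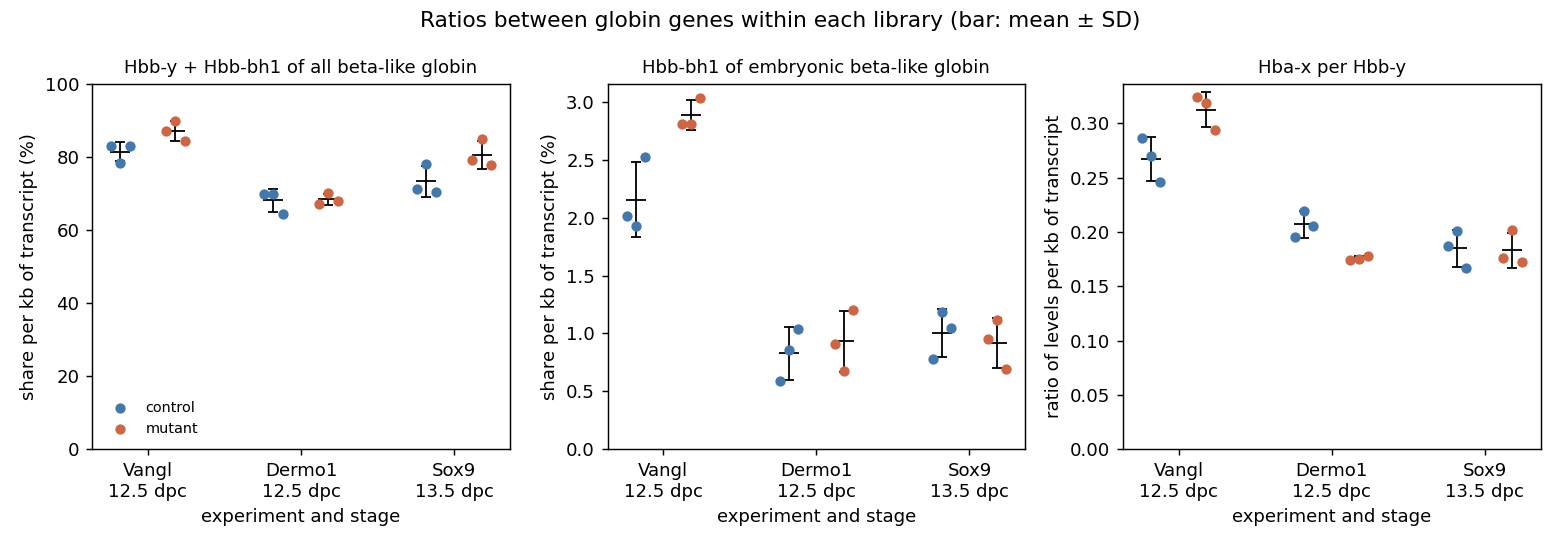
Ratios between globin genes within each library, per kb of transcript, by experiment and stage (x axis), with controls in blue, mutants in orange and bars for the mean ± SD of 3 libraries. From left to right the y axes give the embryonic share of beta-like globin (%), the share of *Hbb-bh1* in embryonic beta-like globin (%) and the ratio of *Hba-x* to *Hbb-y*. The *Vangl* controls lie above the *Dermo1* controls of the same stage in all 3 panels.

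*Alad* was at 1204, 1181 and 1314 in *Sox9* controls and at 879, 928 and 853 in mutants. The mutants lay within a narrow range wholly below the controls. The mean was 71.9% of the control (log2 difference -0.47, SE 0.063). *Alad* was 1 gene of the 8 whose *Sox9* groups did not overlap with mutants lower, against 4.36% of all 14293 genes tested. When each library was left out in turn the log2 difference stayed between -0.51 and -0.43. Inbred strains of mice are known to differ in the number of copies of *Alad*, and the copy number in these libraries was not measured.

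In *Vangl* lungs *Alad* was at 1515, 1079 and 1342 in controls and at 1240, 1206 and 914 in mutants (log2 difference -0.23, SE 0.16). Control replicate 2 lay among the mutants, and without it the groups were apart (-0.36). With the length trend removed the difference was 0.07. In *Dermo1* lungs *Alad* was at 1230, 1022 and 875 in controls and at 893, 819.7 and 975 in mutants. Its log2 difference was -0.21 (SE 0.11, limma adjusted p = 0.556), and the groups overlapped.

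The nearest protein-coding genes on either side of *Alad* were examined after the values of *Alad* were known. *Hdhd3*, at chr4:62499008-62503467 on the same strand, was at 101, 90.6 and 115 in *Sox9* controls and at 72.2, 61.4 and 74.8 in mutants. Its groups were also apart (68.0% of control, log2 difference -0.55, SE 0.15). *Pole3*, on the other side at chr4:62522649-62525068, was at 699, 734 and 737 in controls and at 798, 760.4 and 691 in mutants. *Bspry* and *4933430I17Rik*, the next genes outward, were at 98.3% and 92.6% of the control with groups that overlapped. *Hdhd3* was apart and lower in *Vangl* mutants too (63.7% of control), and overlapped in *Dermo1* (88.2%).

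*Alas2* was at 502.5, 471 and 609.5 in *Sox9* controls and at 331, 326 and 487 in mutants. It overlapped through mutant replicate 3, the library that also had the highest *Beta-s* among the mutants. The mean was 72.2% of the control (log2 difference -0.48, SE 0.16), and without that library the groups were apart (-0.67). In *Vangl* lungs it was at 714, 575 and 649.5 in controls and at 667, 486 and 453 in mutants (82.9% of control). Its log2 difference was -0.29, and it was -0.12 with the length trend removed and -0.37 without control replicate 2. In *Dermo1* lungs it was at 715.5, 723 and 668 in controls and at 689.7, 532 and 849 in mutants (log2 difference -0.05, SE 0.14, limma adjusted p = 0.918).

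*Slc4a1* was at 401, 387 and 344 in *Sox9* controls and at 219.6, 328 and 386.5 in mutants (82.4% of control, with overlap). In *Vangl* controls it was at 527, 517 and 514, close to each other, and mutants at 641, 530.1 and 474 lay around them. Its log2 difference there was 0.07, and it was -0.09 with the length trend removed. In *Dermo1* lungs its log2 difference was 0.08 (SE 0.13, limma adjusted p = 0.862). *Klf1* was near the limit of the filter, at 10.97 to 22.8 in controls and 7.04 to 18.7 in mutants over the 3 experiments, and its groups overlapped in each. Its log2 difference in *Vangl* was -0.10, and it was 0.15 with the length trend removed. At this depth the SE of the *Klf1* difference was 0.28 to 0.42 on the log2 scale, so a difference would have to be well above that size to be resolved.

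Among the 8 genes, 8 had a log2 difference below 0 in *Sox9*, 6 in *Vangl* and 5 in *Dermo1*. The median over the 8 was -0.34 in *Sox9*, -0.17 in *Vangl* and -0.03 in *Dermo1*, against 0.00, -0.01 and 0.00 over all genes tested. In *Vangl* the direction depended on the length trend: with it removed, 3 of the 8 were below 0 and the median was 0.06. Without *Vangl* control replicate 2, 7 of the 8 were below 0 and the median was -0.35. These genes vary together, so they are not 8 separate observations.

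**Figure D3:**
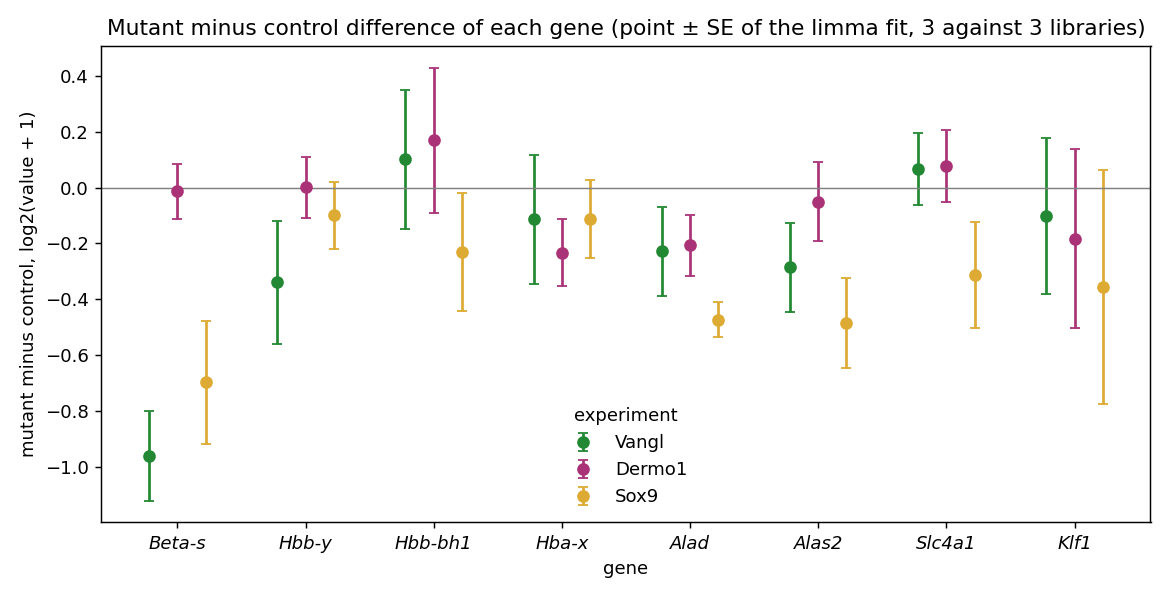
Mutant minus control difference on the log2(value + 1) scale (y axis) of 8 genes (x axis) in the *Vangl* (green), *Dermo1* (purple) and *Sox9* (yellow) experiments. Points are estimates of the limma fit with 1 SE, from 3 against 3 libraries. The lowest point is *Beta-s* in *Vangl* (-0.96), and *Alad* in *Sox9* (-0.47) has the smallest SE of the *Sox9* points.

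The genes whose variation between libraries of a group was most like that of *Beta-s* were taken from 11929 genes with a mean of at least 50 in every experiment. *Alas2* came first (Pearson's r 0.837, Spearman's rho 0.756, n = 18 libraries with group means subtracted), then *Cep70* (0.812), *Fech* (0.811), *Yipf2* (0.787) and *Rbbp8* (0.787). Pearson's r for *Alas2* was 0.798 without the 2 libraries farthest from their group mean in *Beta-s*. For *Alad* the list began with *Cdip1* (r 0.907, rho 0.932), *Coprs* (0.874), *Csrp2bp* (0.873), *Polr2i* (0.866) and *Ube2j2* (0.858), and held no other gene of heme synthesis. *Beta-s* and *Alad* had r 0.178 with each other. *Alas2* had r 0.694 with *Hbb-y* (rho 0.759) and 0.563 with *Hba-x* (rho 0.598). *Alad* had r 0.784 with *Hbb-y*, 0.74 with *Hba-x* and 0.811 with the heme enzyme gene *Urod*, but 0.239 with *Fech*. These are descriptions over libraries that share size factors and 3 tables, and the top of a long list is high by selection.

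The other enzymes of heme synthesis were examined in the order of the pathway. In *Sox9* lungs 0 of the 7 were apart, against 4.36% of all genes apart and lower, and their log2 differences had a median of -0.02. *Fech*, the enzyme that inserts iron, was at 881, 910.0 and 956 in *Sox9* controls and at 834, 856 and 984 in mutants, where *Alas2* and *Alad* were at 72.2% and 71.9% of control. *Alas1*, the aminolevulinate synthase of all tissues, was at 101% of control.

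In *Vangl* lungs 2 of the 7 were apart, both lower, and 6 of 7 were below 0 with a median of -0.28. Of all genes, 8.68% were apart and lower. With the length trend removed the median was -0.15, and without control replicate 2 it was -0.45, with 6 of 7 apart and lower. The share of all genes apart without that library is not given here. *Ppox*, which makes protoporphyrin, was at 469, 503 and 489.7 in controls and at 342, 366 and 307 in mutants (69.4% of control, log2 difference -0.53, SE 0.11). With the length trend removed this was -0.32, and the log2 difference of *Fech* went from -0.15 to -0.47. *Alas1* was also apart, at 88.9% of control. In *Dermo1* lungs limma called 0 of the 7, against 0.014% of all genes. At an unadjusted p below 0.05 it also called 0, against 10.2%. The log2 differences lay between -0.10 and 0.07.

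**Figure D4:**
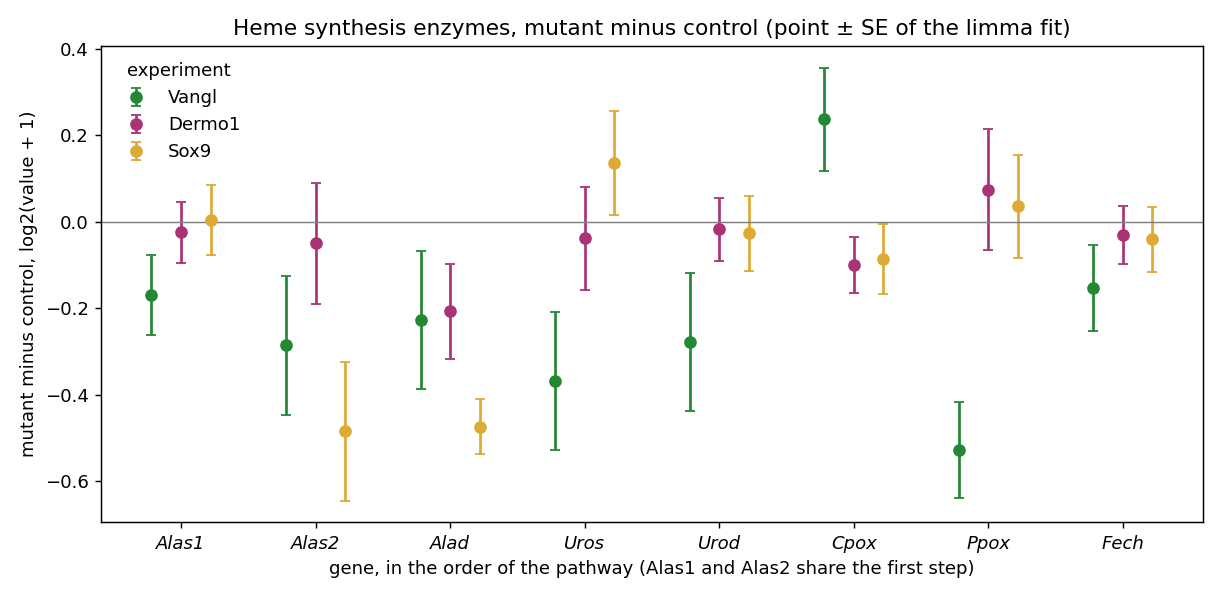
Mutant minus control difference on the log2(value + 1) scale (y axis, point with 1 SE of the limma fit) of 8 heme synthesis enzymes in pathway order (x axis), by experiment. In *Sox9* (yellow) the points of *Alas2* (-0.48) and *Alad* (-0.47) lie below those of the other enzymes, and in *Vangl* (green) *Ppox* (-0.53) is lowest.

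Red cell genes beyond heme and globin were taken from lists of 59 genes, of which 51 have a row and 42 or 43 were tested in an experiment. In *Dermo1* lungs limma called 0 of 43 at an adjusted p below 0.05 (smallest 0.21), and at an unadjusted p below 0.05 it called 2 higher and 2 lower, a share near the 10.2% of all genes. The genes that follow are given by their values and did not pass the test. *Add2*, beta-adducin of the red cell and neuronal membrane skeleton, was at 97.2, 99.4 and 85.2 in *Dermo1* controls and at 129, 137 and 143 in mutants (log2 difference 0.53, SE 0.12). It was also higher without overlap in *Vangl* mutants, at 106, 113 and 110.3 against 135, 141 and 199 (0.50, SE 0.18), though with the length trend removed the difference there was 0.10. *Bcl11a*, a repressor of embryonic globin genes, was at 832, 785 and 830.3 in *Dermo1* controls and at 643, 732 and 642 in mutants (-0.28, SE 0.065). *Sox6*, which acts with it, was at 369, 377 and 355 against 415.5, 412 and 420.4. *Nfe2*, a factor of erythroid cells and megakaryocytes, was at 33.1, 25.1 and 26.8 against 34.3, 36.7 and 44.9 (0.44, SE 0.22). Of 8 megakaryocyte markers tested in *Dermo1*, 3 were apart and higher, against 7.65% of all genes, and their sum was 305 to 356 in controls and 340.4 to 464 in mutants. Their part in the *Nfe2* values was not tested.

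In *Sox9* lungs the list of red cell membrane and surface genes was lower than the others. Of its 10 genes tested, 10 were below 0, with a median of -0.50, and 3 were apart and lower (background 4.36%). *Rhd*, a Rh blood group protein, was at 29.7, 17.92 and 17.96 in controls and at 7.81, 7.04 and 17.4 in mutants (log2 difference -1.03, SE 0.41). *Sptb*, erythroid beta-spectrin, was at 127, 125.5 and 149 against 92.7, 85.5 and 88.2 (-0.58, SE 0.12). *Ermap*, an erythroid membrane protein, was at 34.7, 35.8 and 35.9 against 23.4, 34.2 and 23.6 (-0.40, SE 0.23). The lists of heme and iron supply and of erythroid regulators each had 1 gene apart and lower in *Sox9*, *Blvrb* and *Zfpm1*, with medians of -0.03 and -0.07. The summed membrane list was 1570 to 1673 in controls and 1335 to 1392 in mutants. Among *Dermo1* controls, *Sptb*, *Ank1* and *Tmod1* of this list were highest in replicate 3 (191, 152 and 153). The cardiomyocyte marker *Myh6* was also highest there (5635), while *Rhd* (20.8) was lowest and *Beta-s* (11145) was close to the other controls. The part of cardiomyocytes in the membrane values was not tested.

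In *Vangl* lungs the membrane list had a median of 0.06 (-0.04 with the length trend removed), with 1 gene lower and 1 higher without overlap, and either direction was found in 22.3% of all genes. *Trim10*, which takes part in terminal erythroid differentiation, was at 62.0, 52.2 and 64.1 in controls and at 47.3, 23.6 and 40.4 in mutants (log2 difference -0.71, SE 0.28), and it was -0.58 with the length trend removed.

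**Figure D5:**
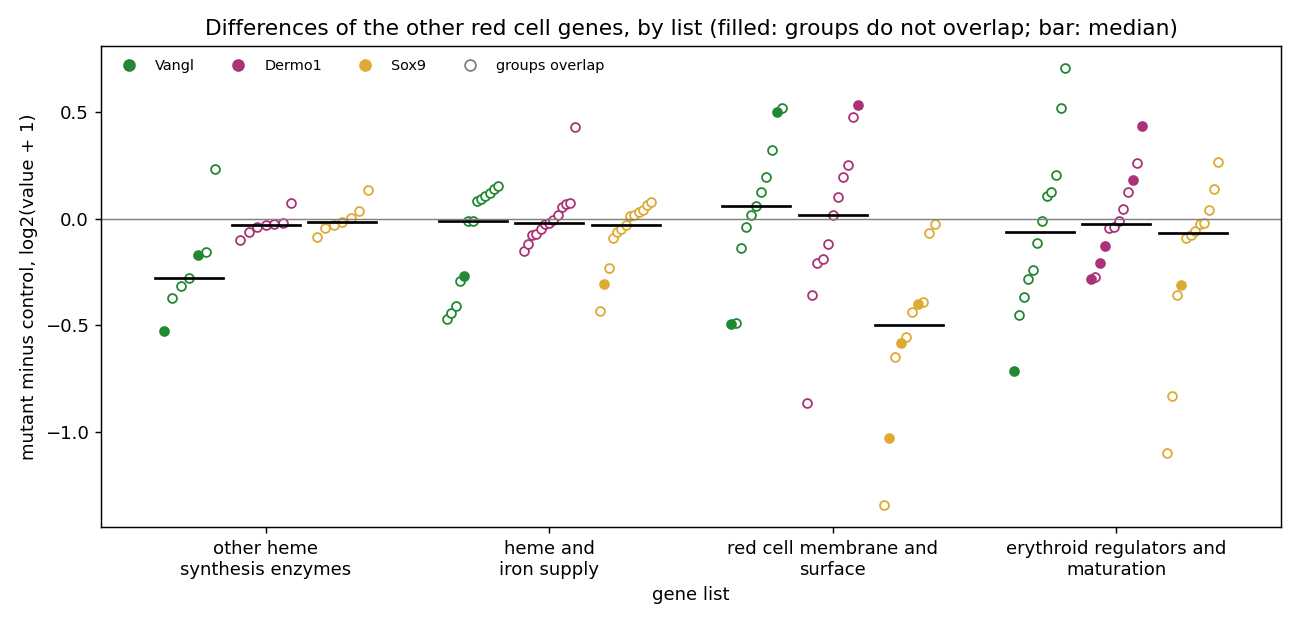
Mutant minus control difference on the log2(value + 1) scale (y axis) of each gene tested in 4 lists of red cell genes (x axis), by experiment. Filled points are genes whose groups do not overlap, and bars are medians. The *Sox9* points of the membrane list all lie below 0, with a median of -0.50, whereas the *Vangl* (0.06) and *Dermo1* (0.02) medians of that list lie near 0.

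Markers of other cell types and of neighbouring tissues were summed in the same libraries, and limma called none of them at an adjusted p below 0.05 in any experiment. Few genes of any kind could be called. In *Sox9* none was (smallest adjusted p 0.576), in *Dermo1* 0.014% of all genes were, and in *Vangl* the smallest adjusted p (0.0318) was that of *Vangl2*. The summed liver markers, among them *Alb* and *Afp*, were at 149.8 to 232 in *Vangl* controls and 125 to 142 in mutants, and at 158 to 336 and 72.4 to 145 in *Dermo1*, with no overlap in either. In *Sox9* they were at 114 to 394 in controls and 55.6 to 125 in mutants, which overlapped. The summed cardiomyocyte markers overlapped in all 3 experiments. Their median log2 difference was -0.64 in *Vangl*, -1.26 in *Dermo1* (9 of 9 below 0) and -2.13 in *Sox9* (10 of 10 below 0, 3 apart). Macrophage and white cell markers had medians of -0.44 in *Vangl*, -0.16 in *Dermo1* and -0.15 in *Sox9*, with 3, 2 and 1 of 9 apart and lower. In *Vangl* these were *C1qb*, *C1qc* (log2 difference -0.60) and *Fcer1g* (-0.97), and with the length trend removed the median was -0.11. Of all genes, 8.68% in *Vangl* were apart and lower, 15.6% in *Dermo1* were apart in either direction, and 4.36% in *Sox9* were apart and lower. The 15.6% in *Dermo1* includes 7.65% of all genes apart and higher, so the share apart and lower is smaller. Endothelial markers had medians of 0.01, -0.08 and -0.05 in the same order, and their sums were apart in *Sox9* (15276 to 15564 in controls, 14744 to 15120 in mutants). The summed lung mesenchyme markers spanned 46897 to 99686 in *Vangl* controls and 75554 to 94993 in mutants. Of the 8 markers, 0 were below 0 in *Vangl*, with a median of 0.32 (0.20 with the length trend removed). The sum was lower without overlap in *Dermo1* (81698 to 93748 against 74828 to 81614), where 5 of 8 were below 0 and the median was -0.04. Lung epithelium markers overlapped in *Vangl* and *Sox9* and were lower without overlap in *Dermo1* (18025 to 20001 against 17147 to 17876). The part of these cells and tissues in the *Beta-s*, *Alad*, *Alas2* and membrane values was not tested.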

How the data were processed

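Total RNA of snap-frozen embryonic lungs was purified on RNeasy columns and read on Illumina HiSeq instruments. Per the labels, the submitters' processing notes name Trim Galore, HISAT2, featureCounts, DESeq2 and the build mm10, with no versions. The authors deposited 1 table of 23420 genes per experiment, whose signal per library is a read count divided by a size factor. All values were whole multiples of 1 step per library, with a largest deviation of 3.7e-05 reads. Means, log2 fold changes and p-values that the authors deposited for their own comparison were not used.

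Values plus a pseudocount of 1 were log2-transformed. Genes that reached 10 in 3 or more of 6 libraries were tested per table by limma (version 3.58.1, R 4.3.3) with a mean-variance trend and Benjamini-Hochberg adjustment at 0.05. The procedure was tested on simulated data. Shares were compared by exact permutation tests (scipy 1.17.1). edgeR (version 4.0.16) gave TMM factors only. Lengths and positions came from GENCODE release 21 for the mouse (GRCm38) and promoters from RefSeq. Genes, lists and tests were chosen with earlier results of these data known. The text names all 9 genes, the 3 list genes per experiment with the largest difference among those not overlapping, list genes called in *Dermo1*, and the 5 genes most like *Beta-s* and *Alad*. Other genes were named after their values were seen. The alternatives changed the scaling, pseudocount, filter, libraries and the use of length. The values of some list genes are not reported here by name, though they enter the counts.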

Additional observations from a re-analysis of the deposited data

Results flagged for a closer look

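The ratio of *Hba-x* to *Hbb-y*, both embryonic globins, moved in opposite directions in the experiments at E12.5. The mean ratio of *Vangl* mutants was 1.17 times that of their controls, and every mutant lay above every control. The mean ratio of *Dermo1* mutants was 0.85 times that of their controls, and every mutant lay below every control. The difference between the experiments was not tested, the ratio was looked at after its values were seen, and *Hba-x* itself did not pass the test in *Dermo1* lungs.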

How the results depend on the processing

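No alternative that was run changed the count of 0 genes called in *Dermo1*, for the 8 genes or for the other red cell genes. With each library left out in turn, the genes whose groups did not overlap numbered 1 to 3 in *Vangl* and 1 to 4 in *Sox9*, against 1 in each with all libraries. Leaving out a library can add such genes but cannot make groups that are apart overlap. The share of all genes apart with a library left out is not given here, so these numbers are a description. The largest numbers came without *Vangl* control replicate 2 (*Beta-s*, *Hbb-y* and *Alad*) and without *Sox9* mutant replicate 3 (*Beta-s*, *Alad*, *Alas2* and *Slc4a1*). The difference in embryonic share by stage, -1.5 points, was 5.18 with the *Dermo1* controls alone, 0.632 with mutants included and -3.9 to 0.149 with a library left out, so its direction was not settled. The *Dermo1* difference in embryonic share, 0.282, was -1.52 to 1.2 with a library left out.

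Of 481 alternative values of single genes, 464 kept their direction and side of the threshold or moved by less than the spread between libraries, 8 moved by more, all in *Vangl* with the length trend removed, and 9 changed sign in *Dermo1*, where none was called. In the experiments without a test for these genes, sign changes numbered 10 in *Vangl* (5 with the length trend removed and 5 with a library left out) and 3 in *Sox9* (all with a library left out), and they are counted above by how far the value moved. *Beta-s* was 0.036 in *Dermo1* with the length trend removed and *Hbb-y* -0.003 (adjusted p = 0.994, limma) with TMM scaling. With a library left out, the *Dermo1* log2 differences ranged from -0.14 to 0.11 for *Beta-s*, -0.11 to 0.067 for *Hbb-y*, -0.15 to 0.45 for *Hbb-bh1*, -0.21 to 0.13 for *Alas2*, -0.057 to 0.19 for *Slc4a1* and -0.085 to 0.039 for *Fech*. The cause was not tested.

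The replicate numbers do not pair the samples: correlations of same-numbered libraries were 0.013 to 0.303 in *Vangl*, -0.223 to 0.073 in *Dermo1* and -0.12 to 0.132 in *Sox9*. With a replicate block the count of genes called in *Dermo1* stayed at 0. The *Vangl* and *Sox9* counts rest on overlap of the values, which a block does not alter, so they could not change. The planned count tests of edgeR and DESeq2 were not run. The deposited values are normalised, and in libraries whose size factor is close to 1 the recovery of reads could not be checked independently. Embryonic shares of alpha-like globin were not computed, since the adult alpha genes are listed at 0. Depth limits *Klf1*, *Rhd* and *Ermap*, which rest on fewer than 40 reads per library in *Sox9* lungs.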
